A study of Mus musculus with 26 samples.

Results

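The comparison set HMCES-KO mouse embryonic stem cells treated for 2 h with activin A at 50 ng/ml against HMCES-KO cells treated for 2 h with SB431542 at 10 µM. It rested on 4 of the 26 libraries of the series, chosen by their labels: the knockout lines KO1 and KO2, with 1 library of each line under each treatment. The same treatments of wild-type (WT) cells, with 2 libraries each, served as the comparison. All cells were labelled C57BL/6, were grown in serum medium on gelatin, and carried no other labelled allele or agent. The labels do not describe the knockout allele of either line. They name no separate cultures of the same line or of WT cells either. Each HMCES-KO group thus holds 2 lines with 1 library each, and the libraries of a WT group could be technical repeats. A p-value here therefore reflects how far these particular libraries vary, which could be technical variation. The WT libraries enter that spread as well. Each treatment was deposited as its own table, so a difference between tables and a difference between treatments cannot be told apart.

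Activin and Nodal are ligands of the TGF-beta family. They bind type II receptors, which activate the type I receptors ACVR1B, ACVR1C and TGFBR1, and these phosphorylate SMAD2 and SMAD3, which enter the nucleus with SMAD4 and bind DNA beside partners such as FOXH1. SB431542 blocks the kinase of those type I receptors and leaves the BMP type I receptors largely active. Activin A against SB431542 therefore sets a driven pathway against a blocked one. Mouse embryonic stem cells make Nodal themselves, and the feedback inhibitors of the pathway are among its best known immediate targets. HMCES, the protein whose gene is labelled as knocked out, binds abasic sites in DNA.

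Hmces was lower in every HMCES-KO library than in the WT libraries of the same table, at 51.7% (KO1) and 25.03% (KO2) of the WT mean under activin A and 62.8% and 28.9% under SB431542. Transcripts of the gene were thus still counted in both lines, and its level did not pass the test between treatments in HMCES-KO cells (log2 difference -0.19, limma adjusted p = 0.31). All 5 embryonic stem cell markers were present in the 4 HMCES-KO libraries at 262.9 to 6882 TPM (reads per gene length, scaled to the same sum in every library), and their summed level was 14134 to 16192 TPM under activin A and 14056 to 16138 TPM under SB431542. The listed fibroblast markers (3 of 5, with Col1a2 and Col3a1 not listed) summed to 4.37 and 9.69 TPM under activin A and 7.59 and 16.3 TPM under SB431542, and the 5 endoderm markers to 10.3 and 13.6 TPM and to 11.9 and 9.39 TPM. Of the neuroectoderm markers, which summed to 655 to 840 TPM, Tubb3 made up most. Depth was 4382377 to 5536792 recovered reads in the 8 libraries.

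Of 12480 genes tested, 31 were called between activin A and SB431542 in HMCES-KO cells (limma, Benjamini-Hochberg adjusted p under 0.05), which is 0.248% of the genes. Of these, 23 were higher under activin A (0.184%) and 8 were lower (0.0641%), and 10 and 2 of them differed by at least 2-fold on the log2(TPM + 1) scale. On that scale the change of a gene with few reads comes out too small. In 30 of the 31 both activin A libraries lay on one side of both SB431542 libraries, which was so for 14.4% (higher) and 17.0% (lower) of all genes. The feedback inhibitors of the pathway, Lefty1, Lefty2 and Smad7, were among the genes with the largest rises. Across all genes the responses of the 2 lines had a correlation of 0.0815, over genes that share their libraries and are not independent. The size of the called set depended on the fit: it was 11 without the term for the knockout line, 1 when limma was run without its trend, 14 without either WT SB431542 library, and 3 (Lefty1, Lefty2 and Smad7) without any one HMCES-KO library, which leaves a single line behind the difference. On the 4 HMCES-KO libraries alone it was 77, and on recovered whole reads with voom it was 135, of which 29 were among the 31.

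The sequences directly upstream of 4 called genes are shown because these genes were called after 2 h, 3 of them higher and 1 lower, and because SMAD3 and SMAD4 are known to bind the letters CAGAC. Each is the 250 bases before the start of the gene, from RefSeq on GRCm38.p6 (mm10), written 5′ to 3′ on the strand of the gene, in a stretch where GENCODE has no exon. Capitals mark CAGAC on either strand (GTCTG is its reverse complement). Nanog lies at chr6:122707239-122707488 on the plus strand (1 of 2 windows listed for the gene), Epha2 at chr4:141300971-141301220 on the plus strand, Rhob at chr12:8500010-8500259 on the minus strand and Bmp4 at chr14:46390670-46390919 on the minus strand.
Nanog: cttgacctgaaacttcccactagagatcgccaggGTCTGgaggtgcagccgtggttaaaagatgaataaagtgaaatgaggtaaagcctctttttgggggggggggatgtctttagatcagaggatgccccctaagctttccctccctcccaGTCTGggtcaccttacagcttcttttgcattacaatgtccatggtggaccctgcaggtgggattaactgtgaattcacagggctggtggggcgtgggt
Rhob: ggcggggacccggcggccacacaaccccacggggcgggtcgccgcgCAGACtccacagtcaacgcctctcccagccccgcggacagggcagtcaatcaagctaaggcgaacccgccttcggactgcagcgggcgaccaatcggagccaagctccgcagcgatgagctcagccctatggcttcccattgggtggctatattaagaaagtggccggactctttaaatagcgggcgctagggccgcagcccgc
Epha2: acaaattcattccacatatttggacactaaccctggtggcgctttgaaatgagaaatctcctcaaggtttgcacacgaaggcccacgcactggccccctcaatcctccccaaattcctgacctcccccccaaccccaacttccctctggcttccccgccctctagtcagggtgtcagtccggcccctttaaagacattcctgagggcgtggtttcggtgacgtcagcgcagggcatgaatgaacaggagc
Bmp4: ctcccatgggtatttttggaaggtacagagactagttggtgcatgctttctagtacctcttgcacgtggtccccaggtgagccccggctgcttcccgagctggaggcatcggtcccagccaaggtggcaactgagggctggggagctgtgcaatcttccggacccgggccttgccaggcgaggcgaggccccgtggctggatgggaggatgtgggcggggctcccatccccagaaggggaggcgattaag
The Nanog window held 2 matches, the Rhob window 1, and the Epha2 and Bmp4 windows 0. Of 32851 such windows of 250 bases over all listed genes, 42.2% held CAGAC on either strand, and of the 25 windows of the 19 called genes that were listed, 12 did. The palindrome GTCTAGAC, which can overlap a CAGAC match by its outer letters, was in 0.167% of all windows and in 0 of the 25, and AATCCACA, a FOXH1 motif, on either strand, was in 0.718% and in 0. A match is a description of the letters and not a site. Called genes without an entry in the promoter table included Lefty1, Lefty2, Smad7, Pmepa1, Skil, Fgf15, Hes1, Cox4i2, Klf5 and Eno1b.

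Among the ligands and extracellular antagonists, Lefty1 and Lefty2 were higher under activin A and the remaining members did not pass the test. Lefty1 (chr1:180935022-180938401, mm10) encodes a secreted antagonist that blocks Nodal. It stood at 188 TPM in KO1 and 229 TPM in KO2 under activin A, and at 2.23 and 3.20 TPM under SB431542. Both activin A libraries were far above both SB431542 libraries, from 559 and 653 reads against 8 and 10. The TPM ratio was 84.4 in KO1 (exact 95% counting interval 42.5 to 196.4) and 71.6 in KO2 (38.7 to 150.01), and the log2 difference was 5.82 ± 0.15 (SE; limma adjusted p = 3.31e-07). Such intervals cover counting error only.

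Lefty2 (chr1:180893108-180899107), the neighbouring paralog with the same role, stood at 170 TPM in KO1 and 182 TPM in KO2 under activin A and at 42.6 and 21.6 TPM under SB431542. The groups did not overlap, and the ratio was 3.99 in KO1 (3.44 to 4.65) and 8.44 in KO2 (6.85 to 10.5). The log2 difference was 2.50 ± 0.20 (SE; limma adjusted p = 0.0023). The lines stood close together under activin A and apart under SB431542, where KO2 had the lower level. Lefty1 and Lefty2 are similar in sequence, and neither the labels nor the notes say how reads shared between them were counted, so their separate levels are uncertain to that extent.

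The ligand genes themselves gave small differences. Nodal stood at 316 and 350 TPM under activin A and at 304 and 330 TPM under SB431542, so that the groups overlapped (log2 difference 0.07 ± 0.06, SE; limma adjusted p = 0.79). Gdf3, a relative of Nodal, had means of 1281 and 1219 TPM, and Inhbb, which encodes an activin subunit, had means of 173 and 164 TPM, with adjusted p-values of 0.73 and 0.84 in limma. Fst, which encodes the activin-binding protein follistatin, was at 3.80 and 1.85 TPM under activin A and at 6.71 and 3.37 TPM under SB431542 (adjusted p = 0.62, limma). In all, 2 of the 14 tested ligands and antagonists were called higher and 0 lower, against 0.184% and 0.0641% of all genes.

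Of the receptors and co-receptors, 0 of 7 tested members were called by limma, against 0.248% of all genes. At an unadjusted limma p under 0.05 there was 1, against 9.11% of all genes. That member was Tdgf1, which encodes the Nodal co-receptor Cripto. It stood at 90.1 and 90.8 TPM under activin A and at 71.8 and 46.8 TPM under SB431542, without overlap (log2 difference 0.63 ± 0.15, SE; limma adjusted p = 0.21). The type II receptor gene Acvr2b was at 19.6 and 18.0 TPM against 24.6 and 20.2 TPM (limma adjusted p = 0.75).

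Within the cell, 3 of 15 tested transducers and nuclear partners were called higher under activin A and 0 lower. Over all genes these shares were 0.184% and 0.0641%. The 3 were Smad7, Pmepa1 and Skil, each of which is known to hold the pathway back. Smad7 (chr18:75367365-75395935) encodes an inhibitory SMAD that targets the type I receptors for degradation. It stood at 136 TPM in both lines under activin A and at 28.4 TPM (KO1) and 14.1 TPM (KO2) under SB431542. The ratio was 4.77 in KO1 (4.17 to 5.49) and 9.68 in KO2 (7.96 to 11.9), and the log2 difference was 2.70 ± 0.19 (SE; limma adjusted p = 0.00087). As for Lefty2, the lines were level under activin A and KO2 was lower under SB431542.

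Pmepa1 (chr2:173224458-173276731), whose membrane protein holds SMAD2 and SMAD3 back from the receptors, stood at 88.4 and 115 TPM under activin A and at 51.1 and 46.5 TPM under SB431542. Skil (chr3:31095058-31122923), which encodes the SMAD co-repressor SnoN, stood at 37.0 and 55.6 TPM against 19.2 and 26.6 TPM. Neither gene overlapped between treatments. The log2 difference was 1.03 ± 0.14 for Pmepa1 and 0.98 ± 0.12 for Skil (SE; limma adjusted p = 0.021 and 0.020). Skil was higher in KO2 than in KO1 under both treatments.

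The other 12 did not pass the test, further inhibitors among them: Smurf2 (log2 difference -0.39), Trim33 (-0.37), Ski (-0.06), Tgif1 (0.07) and Ppm1a (0.02). Smad2 and Smad4, which carry the signal to the nucleus, had means of 32.5 and 38.1 TPM under activin A and of 33.4 and 34.2 TPM under SB431542. Smad3 was low, at means of 1.80 and 3.17 TPM, and Foxh1 was at 534 and 520 TPM. The limma adjusted p-values of the genes named here lay at 0.66 or above.

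In the list of 22 Nodal/activin target genes, 21 were tested (Cer1 was not listed in both tables), and 6 were called higher and 0 lower. Over all genes tested, 0.184% were called higher and 0.0641% lower. The list was chosen with earlier results of these data known, so its counts and median are a description. The median log2 difference was 0.37 against -0.02 over all genes tested. The median was 0.46 in KO1 and 0.17 in KO2. The feedback inhibitors Lefty1, Lefty2, Smad7, Pmepa1 and Skil were 5 of the 6. Ccn2, a matricellular growth factor gene, was at 70.1 and 87.4 TPM against 36.3 and 54.3 TPM (log2 difference 0.80, limma adjusted p = 0.064). Wnt3, a ligand of the primitive streak, was at 6.35 and 4.82 TPM against 1.28 and 0.92 TPM (1.65, limma adjusted p = 0.18). Trh, the thyrotropin-releasing hormone gene, was abundant under both treatments, at 3960 and 2859 TPM against 3262 and 2545 TPM (0.22, limma adjusted p = 0.13).

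The lineage genes of that list were low and split between lines. Fgf8 was at 14.9 TPM in KO1 and 4.12 TPM in KO2 under activin A and at 1.45 and 4.59 TPM under SB431542, a log2 difference of 2.70 in KO1 and -0.13 in KO2. Ldlrad4 (0.88 and -0.13), Mixl1 (-0.17 and 0.44) and Foxa2 (0.29 and -1.11) also differed in sign between the lines. Eomes was at 11.4 and 5.95 TPM against 8.02 and 5.69 TPM, and Gsc at 0.94 and 2.94 TPM against 0.78 and 2.68 TPM. Otx2 and Bambi had log2 differences of 0.24 and 0.28, and limma adjusted p-values of 0.73 or above.

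**Figure D1:**
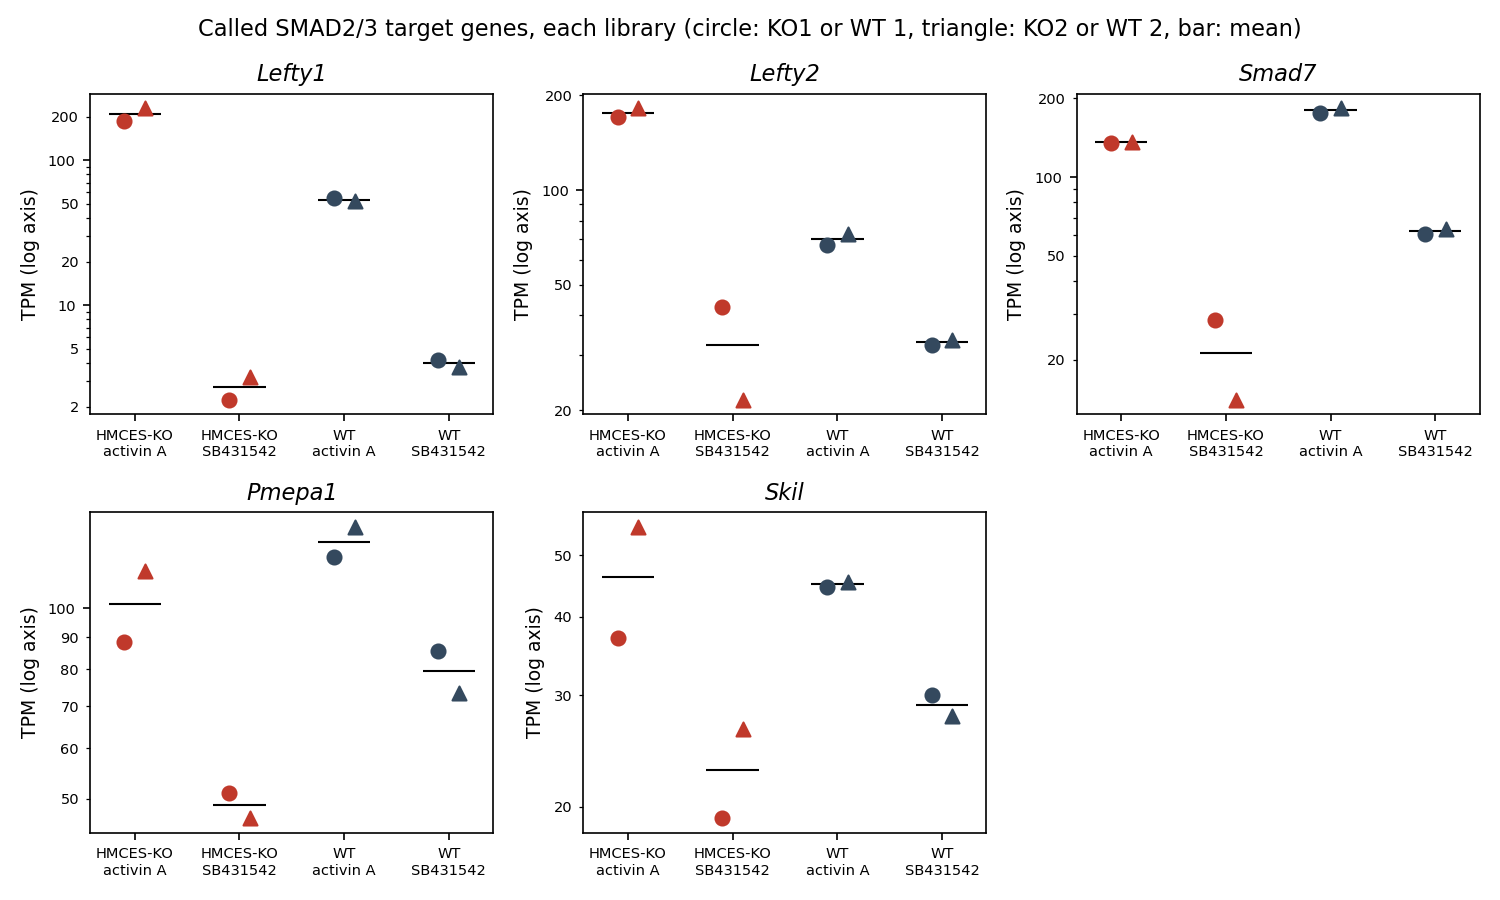
Levels of 5 called target genes in TPM on a log axis, for HMCES-KO (red) and WT (dark) libraries under activin A and SB431542, with a bar at the mean of both libraries. In each panel both HMCES-KO activin A points lie above both HMCES-KO SB431542 points, from 188 and 229 TPM against 2.23 and 3.20 TPM for Lefty1 to 37.0 and 55.6 TPM against 19.2 and 26.6 TPM for Skil.

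Beyond the listed targets, 5 further called genes were higher by at least 2-fold on the log2(TPM + 1) scale: Trim47, Cox4i2, Fgf15, Zfp819 and B3galnt1. Fgf15 (chr7:144896532-144900953), a secreted fibroblast growth factor of the endocrine branch, stood at 58.6 and 61.1 TPM under activin A and at 17.3 and 21.8 TPM under SB431542 (log2 difference 1.57 ± 0.23, SE; limma adjusted p = 0.037). Trim47, an E3 ubiquitin ligase gene, was at 23.6 and 37.9 TPM against 5.02 and 13.4 TPM (1.73 ± 0.24, SE; limma adjusted p = 0.027). Neither gene overlapped between treatments. Trim47 was higher in KO2 than in KO1 under both.

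Cox4i2, an isoform gene of cytochrome c oxidase, was at 12.8 and 14.9 TPM against 3.11 and 5.004 TPM, from 17 and 19 reads against 5 and 7 (log2 difference 1.57 ± 0.21, SE; limma adjusted p = 0.025). Zfp819, a zinc finger gene, was at 134 and 109 TPM against 55.9 and 57.3 TPM (1.08 ± 0.13, SE; limma adjusted p = 0.015). B3galnt1, a glycosyltransferase gene, was at 156 and 110 TPM against 78.9 and 52.1 TPM (1.02 ± 0.10, SE; limma adjusted p = 0.0050). All 3 were free of overlap, and B3galnt1 was higher in KO1 than in KO2 under both treatments.

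The remaining genes called higher differed by less. Anp32a, which encodes a nuclear phosphoprotein, was at 287 and 271 TPM against 144 and 169 TPM (log2 difference 0.83, limma adjusted p = 0.020). Ndufa6, which encodes a subunit of respiratory complex I, was at 224 and 238 TPM against 125.2 and 164 TPM (0.69, limma adjusted p = 0.047). The following 8 were named after their values were seen: Rhob (0.98), Bcar3 (0.88), Nxn (0.82), Epha2 (0.68), Slc7a7 (0.56), Hes1 (0.56), Ckb (0.47) and Sfn (0.42), each given with its log2 difference. Nxn encodes a thioredoxin-related regulator of Wnt signalling, Slc7a7 an amino acid transporter subunit, Hes1 a repressor downstream of Notch, Ckb a creatine kinase, and Bcar3 and Sfn encode an adaptor of adhesion signalling and stratifin. Rhob, a small GTPase gene of actin regulation, stood at 254 and 249 TPM against 120 and 135 TPM. Epha2, an ephrin receptor gene, stood at 166 TPM in both lines against 103 and 104 TPM. Ckb was the 1 called gene whose groups overlapped, at 288 and 406 TPM against 194 and 314 TPM.

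**Figure D2:**
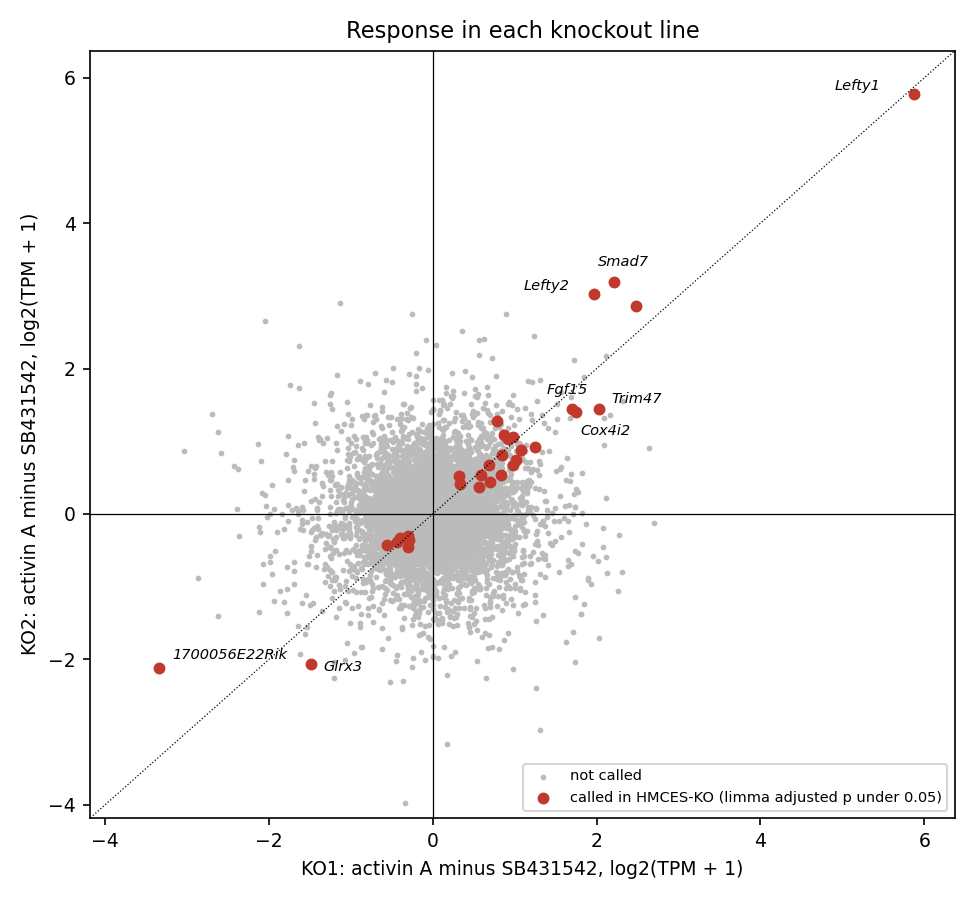
Difference between activin A and SB431542 in KO1 (x axis) and KO2 (y axis) on the log2(TPM + 1) scale, 1 point per tested gene, with the 31 called genes in red and a dotted line where both lines are equal. Lefty1 lies at 5.87 and 5.78, while Smad7 (2.22 and 3.19) and Lefty2 (1.97 and 3.02) lie above the dotted line.

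Among the 17 naive pluripotency genes, 1 was called higher and 1 lower, against 0.184% and 0.0641% of all genes. At an unadjusted p under 0.05, 4 were higher and 6 lower, against 4.49% and 4.62% of all genes (median log2 difference -0.07). Nanog (chr6:122707489-122714633), a core transcription factor of these cells, whose upstream window is printed above, was at 1099 and 1049 TPM under activin A and at 871 and 788 TPM under SB431542. The ratio was 1.26 in KO1 (1.21 to 1.32) and 1.33 in KO2 (1.27 to 1.396), and the log2 difference was 0.37 ± 0.05 (SE; limma adjusted p = 0.020). Klf5, a Krüppel-like factor gene, went the other way, at 735 and 698 TPM against 909 and 860 TPM (-0.30 ± 0.04, SE; limma adjusted p = 0.037). Klf4 was not called, with means of 510 and 642 TPM (-0.33, limma adjusted p = 0.12), nor was Esrrb, at 297 and 309 TPM. Prdm14 and Tbx3 had log2 differences of 0.55 and 0.41, with overlap between the treatments (limma adjusted p = 0.26 and 0.24). Of the 12 general pluripotency genes, 0 were called by limma and 2 had an unadjusted p under 0.05, against 9.11% of all genes. Pou5f1 stood at 5807 and 5506 TPM against 5396 and 5171 TPM.

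Genes of the BMP branch, which signals through SMAD1 and SMAD5 and shares SMAD4, were measured as well. Bmp4 (chr14:46383525-46390669), the ligand gene, was lower under activin A, at 492 and 525 TPM against 725 and 706 TPM. The ratio was 0.68 in KO1 (0.64 to 0.72) and 0.74 in KO2 (0.70 to 0.79), and the log2 difference was -0.49 ± 0.05 (SE; limma adjusted p = 0.010). It was the 1 called gene of the 15 tested BMP ligands, receptors, SMADs and antagonists, against 0.248% of all genes called. Among 16 tested BMP target genes, 1 was called higher, the shared target Smad7, and 0 lower, with a median log2 difference of 0.22. The shares called over all genes were 0.184% and 0.0641%, and the median was -0.02. Id3 and Id1, direct BMP targets that inhibit differentiation factors, were at 132 and 173 TPM against 202 and 245 TPM, and at means of 1573 and 1893 TPM, with log2 differences of -0.55 and -0.27 and limma adjusted p-values of 0.051 and 0.15. Id2 and Id4 had positive differences of 0.26 and 0.29 that did not pass either.

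The other genes called lower were 1700056E22Rik, Glrx3, Resf1, Eno1b, Mt1 and Mt2. Glrx3 (chr7:137437573-137469631), which encodes a glutaredoxin of iron-sulfur handling, stood at 12.9 and 8.98 TPM against 38.01 and 40.9 TPM, a ratio of 0.34 in KO1 (0.19 to 0.58) and 0.22 in KO2 (0.11 to 0.41). Its log2 difference was -1.78 ± 0.23 (SE; limma adjusted p = 0.020). The transcript 1700056E22Rik was counted with 0 and 3 reads under activin A and with 18 and 20 under SB431542 (log2 difference -2.73, which depends on the pseudocount since 1 library is at 0). Resf1, a regulator of silencing of retroviral elements, had a log2 difference of -0.41. Mt1 and Mt2, the metallothionein genes that bind zinc and copper, stood at 1867 and 2267 TPM against 2462 and 2856 TPM and at 3077 and 3377 TPM against 3777 and 4314 TPM (-0.37 and -0.32, limma adjusted p = 0.0083 and 0.011). Eno1b (-0.38) is a near-identical copy of Eno1, so its reads could belong to either. Nop14, at -0.70, did not pass (limma adjusted p = 0.051).

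Of the 27 gene lists, 6 held a called gene and 21 held 0 by limma, with 0 to 7 members each at an unadjusted p under 0.05. Over all genes, 9.11% were at an unadjusted p under 0.05, 4.49% higher and 4.62% lower. The lists without a call took in the immediate early, FGF-ERK feedback, Wnt target, primitive streak, endoderm, neuroectoderm, p53, stress response, cholesterol and cell cycle genes. Among the 19 immediate early and serum response genes, 6 were higher and 1 lower at an unadjusted p under 0.05. Of the 6, Myc had means of 354 and 274 TPM and Junb of 642 and 512 TPM (limma adjusted p = 0.19 and 0.27). Spry4, a feedback inhibitor of FGF signalling, was at 169 and 141 TPM against 210 and 197 TPM (log2 difference -0.40, limma adjusted p = 0.079). Fdps, an enzyme gene of the cholesterol pathway, was at 13.8 and 9.46 TPM against 23.7 and 24.1 TPM (-0.998, limma adjusted p = 0.085). Of 9 trophectoderm, 13 endoderm and 8 neuroectoderm genes tested, 0, 2 and 0 had an unadjusted p under 0.05.

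**Figure D3:**
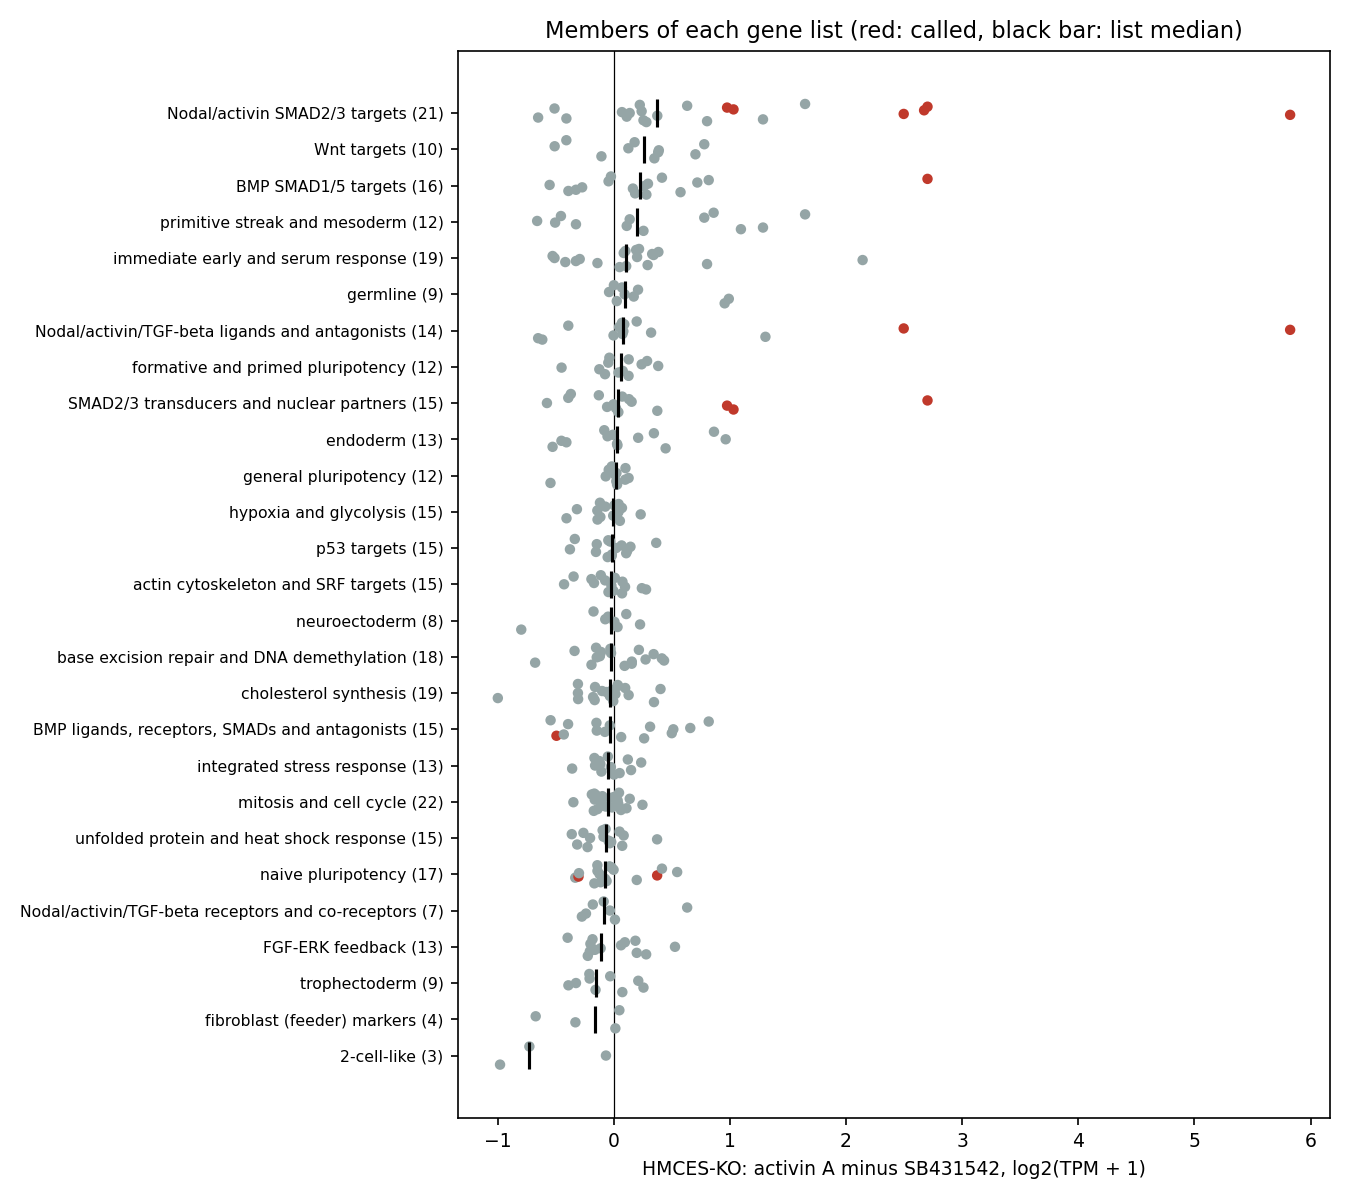
Difference between activin A and SB431542 in HMCES-KO cells on the log2(TPM + 1) scale for each tested member of the 27 gene lists, with the number tested in brackets, called members in red and a black bar at the list median. The target list lies at the top, with 6 red points and a median of 0.37, and most other lists have medians near 0.

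The WT libraries of the same tables showed how far these responses were also found with Hmces intact. Lefty1 was the 1 gene called in WT (0.00801% of those tested), at 54.9 and 52.2 TPM under activin A and at 4.22 and 3.77 TPM under SB431542 (log2 difference 3.45 ± 0.15, SE; limma adjusted p = 3.61e-05), and 918 genes had an unadjusted p under 0.05. Of the 31 genes called in HMCES-KO, 25 had the same sign in WT (19 of the 23 higher and 6 of the 8 lower), and 23 were free of overlap in the same direction in WT, where 19.4% of all genes lay higher and 18.1% lower without overlap. The share of all genes with the same sign was not computed. Across all genes the responses in HMCES-KO and in WT had a correlation of 0.04. Smad7 and Lefty2 had WT differences of 1.52 and 1.06, and Pmepa1 and Skil of 0.68 and 0.62. Epha2 (0.64) and Hes1 (0.65) differed in WT about as much as in HMCES-KO. Of the 31, 30 had the larger difference in HMCES-KO, which is the contrast that chose them, so this count is a description.

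The difference between the responses was tested as an interaction. It was called for 1 gene, Lefty1 (0.00801%), and 907 genes had an unadjusted p under 0.05. The Lefty1 response was larger in HMCES-KO by 2.37 ± 0.22 on the log2 scale (SE; limma adjusted p = 0.019), with both HMCES-KO libraries above both WT libraries under activin A and below them under SB431542. The size ranged from 2.09 to 2.53 over 19 other settings, and the call was lost in 11 of them: without the line term (adjusted p = 0.11), without the trend (0.20), without any 1 of the 8 libraries (0.070 to 0.37) and with voom (0.16). Ndufa6 came next, higher under activin A in HMCES-KO (0.69) and lower in WT (-0.66), a difference of 1.35 ± 0.15 (SE; limma adjusted p = 0.053). The differences for Lefty2 (1.44) and Smad7 (1.18) had limma adjusted p-values of 0.40 and 0.41. Those for Anp32a (1.05) and Glrx3 (-1.84), with WT differences of -0.22 and 0.06, had limma adjusted p-values of 0.25 and 0.40. For Cox4i2 the difference was 1.49, with a limma adjusted p of 0.40.

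Levels within a treatment can be set side by side for both genotypes. Smad7 was lower in HMCES-KO than in WT under SB431542, at 28.4 and 14.1 TPM against 60.6 and 63.6 TPM, and under activin A, at 136 TPM in both lines against 176 and 184 TPM. Lefty2 was higher in HMCES-KO under activin A, at 170 and 182 TPM against 66.9 and 72.5 TPM, while under SB431542 the WT libraries (32.2 and 33.5 TPM) lay between KO1 and KO2. These are levels given as a description, and the genotype contrast within a treatment was not tested.

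**Figure D4:**
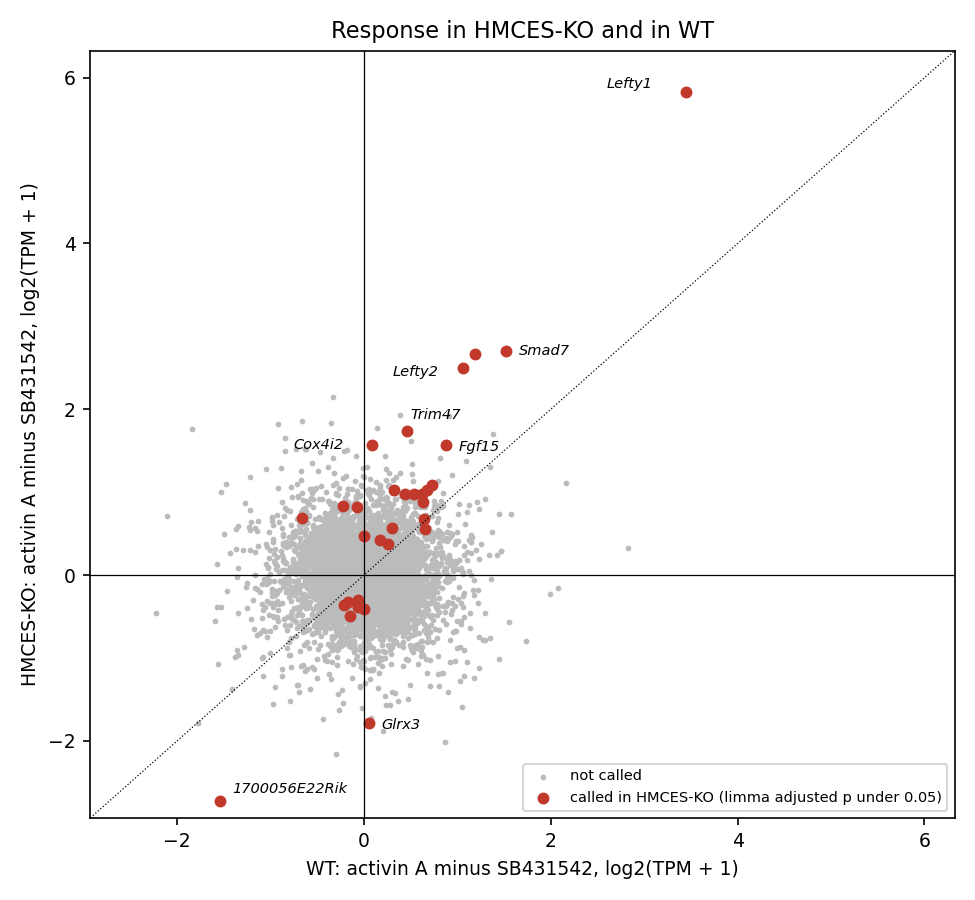
Difference between activin A and SB431542 in WT (x axis) and in HMCES-KO (y axis) on the log2(TPM + 1) scale, 1 point per tested gene, with genes called in HMCES-KO in red and a dotted line at equality. Lefty1 lies at 3.45 in WT and 5.82 in HMCES-KO, and Cox4i2 (0.09 and 1.57) and Glrx3 (0.06 and -1.78) lie near 0 in WT. Neither Cox4i2 nor Glrx3 passed the test of the difference between responses (limma adjusted p = 0.40 for each).

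The HMCES-KO lines were also treated for 2 h with BMP4 at 10 ng/ml or with LDN193189 at 50 nM, an inhibitor of BMP type I receptors. These levels are given beside both arms of the comparison. They are separate tables, with no test here. For 23 of the 31 called genes (16 of 23 higher, 7 of 8 lower) the BMP4 and LDN193189 means lay between those of activin A and SB431542. The 31 were chosen by a difference between activin A and SB431542, which by itself favours such an order. The share over all genes was not computed, so this count is a description only. Lefty1 was at 115 TPM (KO1) and 261 TPM (KO2) under BMP4 and at 43.1 and 123 TPM under LDN193189, nearer to activin A than to SB431542 on the log2 scale. Smad7 was at 85.1 and 85.8 TPM under BMP4 and at 42.4 and 39.1 TPM under LDN193189, and Lefty2 at 107 and 102 TPM and at 64.2 and 73.7 TPM.

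Fgf15 was at 29.4 and 34.6 TPM under BMP4 and at 27.4 and 22.8 TPM under LDN193189, between the 17.3 to 21.8 TPM of SB431542 and the 58.6 to 61.1 TPM of activin A. Rhob was at 199 and 238 TPM under BMP4 and at 189 and 234 TPM under LDN193189, near its activin A levels. Bmp4 was at 556 and 578 TPM and at 640 and 593 TPM, again between both arms. Zfp819, at 167 and 92.9 TPM under BMP4, and Cox4i2, at 25.3 and 14.1 TPM, had BMP4 means above those of activin A.

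**Figure D5:**
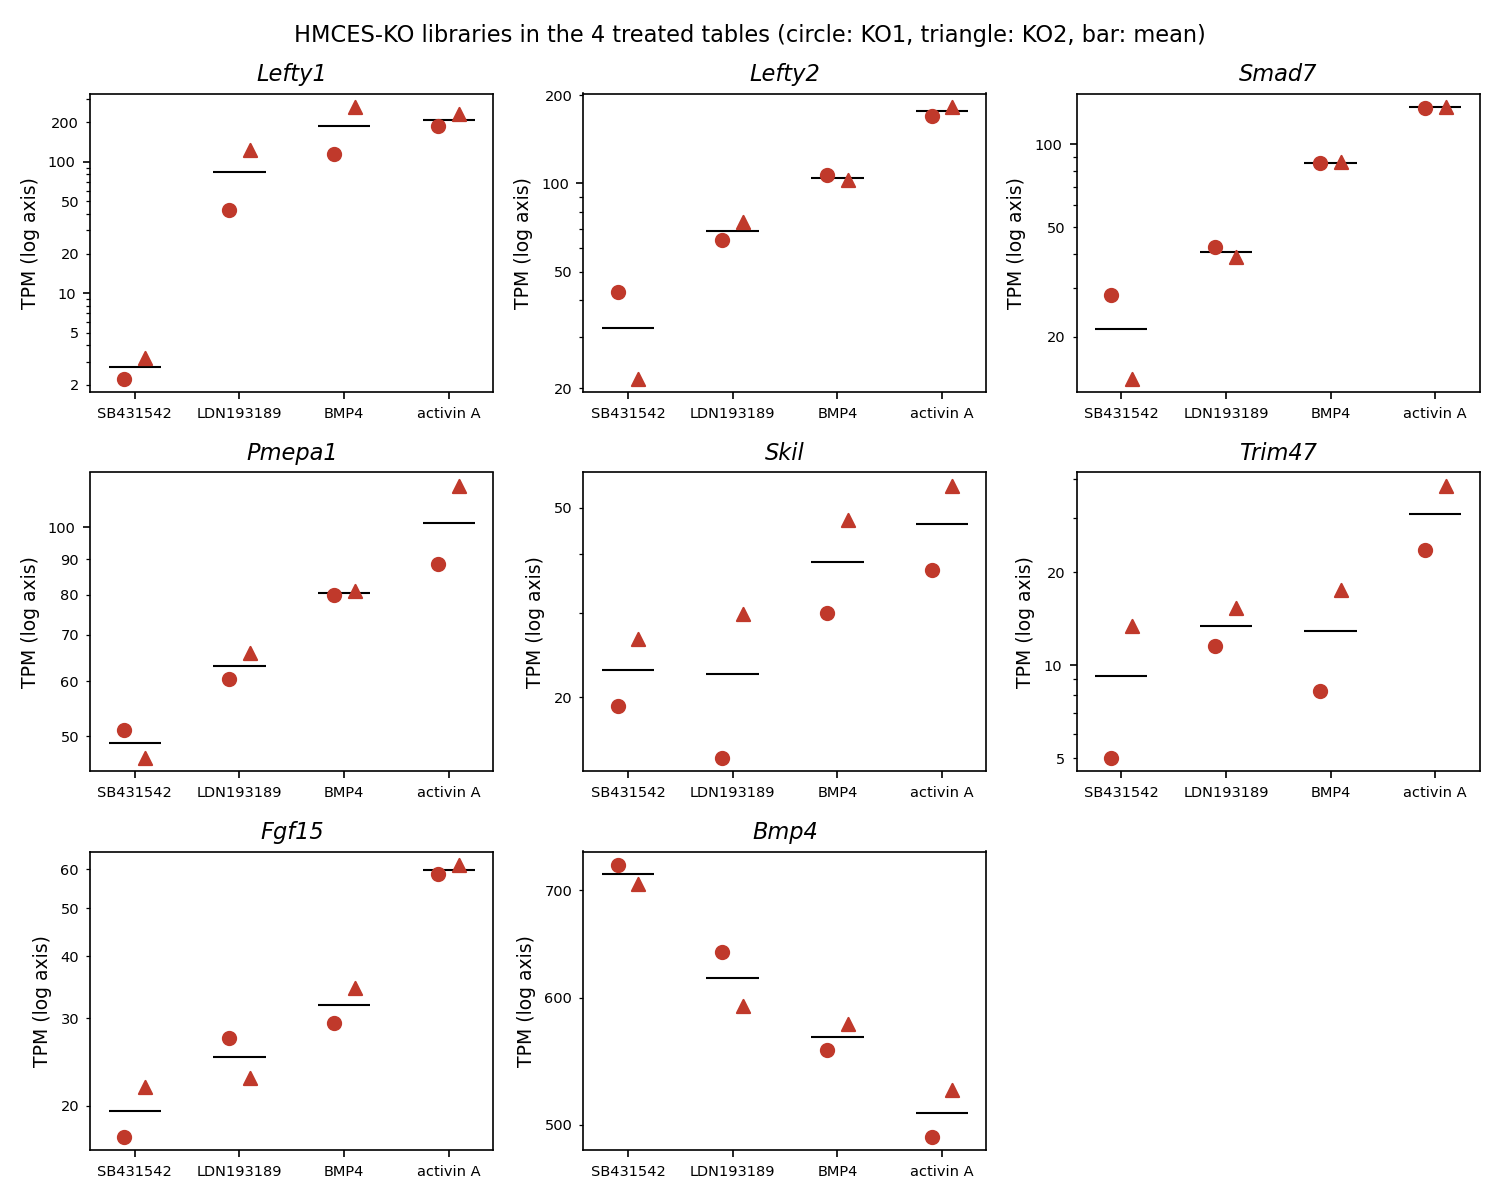
Levels of 8 called genes in TPM on a log axis in the HMCES-KO libraries under SB431542, LDN193189, BMP4 and activin A (circle KO1, triangle KO2, bar at the mean). The SB431542 mean is the lowest and the activin A mean the highest for Lefty1, Lefty2, Smad7, Pmepa1, Trim47 and Fgf15, and the order is turned for Bmp4, while the lowest Skil mean is that of LDN193189.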

How the data were processed

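RNA was measured by sequencing, with libraries built by a TruSeq kit per the labels' protocols. The authors deposited TPM, scaled to 1000000 per library within each treatment's table, on mm10. Bowtie2 2.3.3, SAMtools 1.9, featureCounts 2.0.1, FastQC 0.11.5 and DESeq2 are named per the submitters' processing notes, with no role given. The strand setting, annotation and gene filter of these tables are not given in the sources used here. There were 13438 genes listed for activin A and 13482 for SB431542. The 13184 genes in both were rescaled to 1000000, which kept at least 99.975% of TPM.

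Groups came from the labels. With R 4.3.3 and limma 3.58.1 (trended prior), log2(TPM + 1) was fitted over 8 libraries with a group term and a term for knockout line, for genes with at least 1 TPM in at least 2 libraries. Calls were at a Benjamini-Hochberg adjusted p under 0.05 over 12480 genes, with 3 residual degrees of freedom. Lines pair the HMCES-KO libraries, since the same lines were used in both tables (correlation of line deviations 0.24). WT replicate numbers do not (-0.006).

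Whole reads were recovered from TPM for 100% of the 13184 genes within 0.01 reads, which fixes depth and counting intervals. Scripts were tested on simulated data. Named genes were Hmces, all measured Nodal/activin targets, the 10 largest called changes each way without overlap (filled with the lowest p where fewer were called), the 10 lowest p-values of the difference between genotypes, and up to 4 called or 2 uncalled members of each other list, and the text gives the values of those that bear on a result. Members and gene lists were chosen with earlier results of these data known. Alternatives were other pseudocounts, filters, scalings, blocks, library sets and left-out libraries, and, chosen after seeing the data, voom on the recovered reads. The untreated libraries were not used here, and some genes that meet the naming rule are not reported here.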

Additional observations from a re-analysis of the deposited data

Results flagged for a closer look

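The Lefty1 response to activin A against SB431542 was larger in HMCES-KO than in WT by 2.37 on the log2 scale (limma interaction, adjusted p = 0.019), which set it apart as an effect that differs between genotypes. It was in the same direction in both lines, with log2 differences of 5.87 in KO1 and 5.78 in KO2 against 3.45 in WT. The SB431542 levels behind it rest on 8 and 10 reads in HMCES-KO and on 14 and 11 reads in WT. Of 19 other settings, the call of the genotype difference held in 8 and was lost in 11. It was lost without the line term (limma adjusted p = 0.11), without the limma trend (0.20) and with voom (limma adjusted p = 0.16). It was also lost with any 1 of the 8 libraries left out. There 1 group rests on 1 library, and the size was 2.31 to 2.44.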

How the results depend on the processing

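The HMCES-KO count of 31 called genes became 11 with no replicate block (all 11 among the 31), 17 with a replicate block also for WT numbers, 1 without the limma trend, 77 on the 4 HMCES-KO libraries and 135 with voom, and lay between 3 and 38 when 1 library was left out. The WT count of 1 became 2 with a pseudocount of 5, 3 with 16 libraries and 45 with voom, and lay between 1 and 3 with 1 library left out. The count of differing responses, 1, became 2 with a pseudocount of 5, with the filter at 5 TPM and with the block for WT numbers, 0 with no replicate block (564 at an unadjusted p under 0.05, limma), 0 without the trend (837) and 31 with voom, Lefty1 not among them; with 1 library left out it was 0 in each case (731 to 865). The 6 called Nodal/activin targets became 1 without the trend, and 3 to 7 with 1 library left out. Of the 31 genes, Lefty1 passed under all 20 alternatives, Lefty2 and Smad7 under 19, 10 genes under at least 15, and each under at least 6. None of the 31 changed direction. The sign turned with 1 library left out for Fgf8 (-0.13 to 2.70), Ldlrad4 (-0.13 to 0.88), Foxa2 (-1.11 to 0.29) and Mixl1 (-0.17 to 0.44), since the lines differed; none of these 4 was called. The cause of these shifts was not tested, except that leaving out an HMCES-KO library leaves 1 line behind the estimate, with its spread taken from the other groups. With 4382377 to 5536792 reads per library, genes at a few TPM rest on few reads, such as Lefty1 with 8 and 10 under SB431542 in HMCES-KO.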
